A study of Bos taurus with 6 samples.

Results

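The genes described here are 38 genes of the DNA damage response and of DNA repair, listed by symbol, and all 38 were found among the 17325 genes measured. The libraries hold messenger RNA of cow oocytes that were brought to metaphase II in culture, where the mature egg pauses until sperm entry. Of the 6 libraries, 3 carry the label siMTFP1 (RNA interference against MTFP1, whose protein sits in the inner membrane of mitochondria and takes part in their division) and 3 carry the label NC (negative control), and the one comparison is between them. No other treatment or genotype is stated for either group, and the labels give neither the number of oocytes per library, nor the siRNA sequence or dose, nor whether replicates came from separate cultures. The p-values therefore reflect the spread among these libraries alone, and that spread may be technical. Values are FPKM, fragment counts divided by transcript length and by the mapped fragments of the library, so levels of different genes can be set side by side per unit of length. In bulk RNA of this kind, fewer cells of a type and less RNA per cell cannot be told apart.

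A cell answers DNA breaks in layers. Sensors recruit the kinases ATM and ATR, with the MRE11, RAD50 and NBN complex bringing in ATM. These kinases act through CHEK2 and CHEK1 on the p53 family and on the cell cycle. Separate enzyme sets then mend breaks by homologous recombination or end joining and damaged bases by excision or mismatch repair. In mouse oocytes the p53 relative TP63 is the best known guardian, switched on by CHEK2 after damage in the resting follicle. The mature mammalian egg is transcriptionally quiet and carries repair messages that the early embryo will also use.

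MTFP1 itself, NCBI gene ID 525071, lay near 0 throughout. It had 0.43, 0.58 and 1.15 FPKM in the libraries labelled siMTFP1 1, 2 and 3, against 0.53, 0.55 and 0.05 FPKM in those labelled NC 1, 2 and 3. The targeted message was thus not lower in the libraries labelled siMTFP1 (log2(FPKM + 1) difference 0.32; p = 0.4 in a two-sided exact permutation test, which cannot go below 0.1 here). At such levels the size depends on the pseudocount: it was 0.96 with a pseudocount of 0.1 and 0.09 with one of 5. Every direction given for a gene is therefore that of the labels. The 14 oocyte markers summed to 33347 to 34362 FPKM in siMTFP1-labelled libraries and to 34348 to 35920 FPKM in NC-labelled ones, with none at 0 in any library. Of these only ZP2 did not overlap, at 3053 to 3241 FPKM in siMTFP1-labelled and 4427 to 4768 FPKM in NC-labelled libraries. Its difference was -0.54 (adjusted p = 0.447 in the limma test described below). The 22 cumulus and granulosa markers, for the somatic cells that surround the egg, summed to 200.1, 1137 and 199.1 FPKM in siMTFP1 1, 2 and 3 and to 364, 170.2 and 305 FPKM in NC 1, 2 and 3, and between 2 and 5 of them were at 0 in a library. Of the 1137 FPKM in siMTFP1 2, TIMP1 made up 955, while the follicle-stimulating hormone receptor FSHR was at 0 in all libraries but NC 3 (0.02 FPKM) and the aromatase CYP19A1 did not exceed 0.24 FPKM. Other markers of these cells, named after their values were seen, were present in every library: the steroidogenic transport gene STAR at 64.3 to 67.9 FPKM in siMTFP1-labelled and 54.5 to 72.6 FPKM in NC-labelled libraries, the hyaluronan synthase gene HAS2 at 37.2 to 49.9 and 33.8 to 40.2 FPKM, KRT8 at 14.1 to 19.6 and 12.1 to 21.01 FPKM, and VCAN at 13.8 to 16.7 and 13.3 to 16.9 FPKM in the same order of groups. Other markers of that list were less even. INHA had 1.42 to 15.7 FPKM in siMTFP1-labelled and 0.65 to 1.99 FPKM in NC-labelled libraries. CYP11A1 had 1.32 to 13.4 and 0.11 to 3.46 FPKM, and KRT18 0.04 to 1.33 and 0 to 0.11 FPKM. TNFAIP6 ran the other way in mean, at 1.06 to 2.84 and 1.51 to 17.1 FPKM. All of these overlapped, but AREG was at 0 in every siMTFP1-labelled library and at 0.16 to 0.21 FPKM in NC-labelled ones. The part of such cells in the members' values was not tested. The 5 leukocyte markers summed to at most 4.72 FPKM and the 5 fibroblast and theca markers to at most 23.3 FPKM, the highest being siMTFP1 2.

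The metaphase II oocyte libraries held messages of at least some genes of every class listed here, but at very unequal levels. Of the 38 genes, 2 had a mean of 100 FPKM or more over the 6 libraries, 7 lay between 30 and 100, 7 between 10 and 30, 18 between 1 and 10 and 4 under 1 FPKM. The median gene of the list averaged 9.58 FPKM. The order was led by the recombination gene RAD51C, which exceeded 95.5% of all genes in the files, followed by the uracil glycosylase gene UNG, the checkpoint kinase gene CHEK1, the end joining gene XRCC4 and the recombination gene PALB2. RAD51C stood apart from UNG in every library, with a lowest value of 154 FPKM against a highest of 120.2 for UNG. UNG, CHEK1 and XRCC4 had ranges that overlapped from one to the next, and the lowest XRCC4 value of 73.4 FPKM lay above the highest PALB2 value of 71.01. At the other end FANCA, MDC1 and XPC never exceeded 0.58 FPKM, and PMS2 reached 1.23 FPKM at most.

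**Figure D1:**
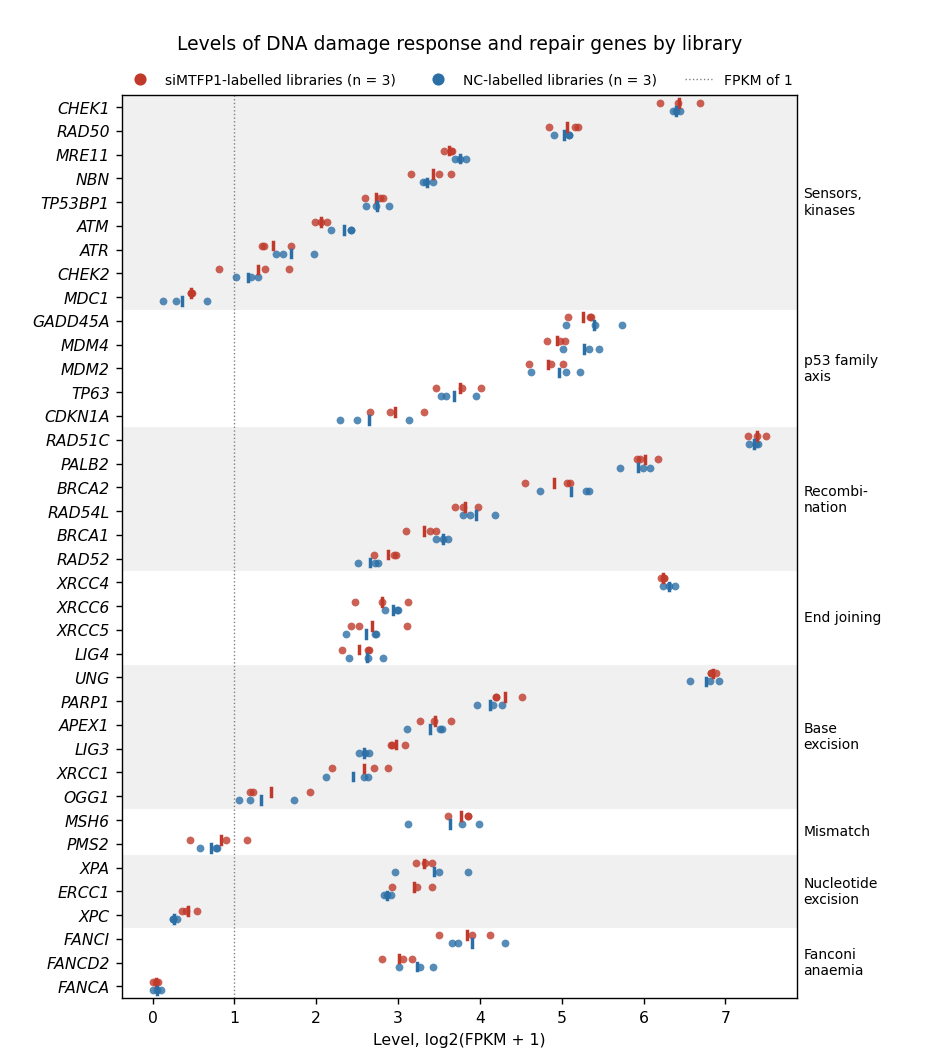
Level of each of the 38 genes in each library, as log2(FPKM + 1) on the horizontal axis, grouped by role. Points are libraries (red, siMTFP1-labelled, n = 3; blue, NC-labelled, n = 3), short vertical bars are group means, and the dotted line marks an FPKM of 1; RAD51C lies highest and FANCA lowest, and the red and blue points of most genes intermix.

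No member passed the test between the groups. Genes with a mean of at least 1 FPKM over the 6 libraries were tested with limma, a linear model fitted to log2(FPKM + 1) over all 9730 such genes, and 34 of the 38 members were among them. After Benjamini-Hochberg adjustment over all tested genes 0 members passed the threshold of 0.05, as did 0.00% of all tested genes (limma, smallest adjusted p among the members 0.750). At an unadjusted p under 0.05 there was 1 member, LIG3, against 6.53% of all tested genes. The siMTFP1-labelled mean was the higher one in 18 of the 34 members and the lower one in 16, where 54.2% of all tested genes were higher, and the members' median log2 difference was 0.04, beside 0.02 over all tested genes. The groups did not overlap in 2 tested members in the higher direction (5.97% of all tested genes) and in 2 in the lower direction (5.05%). The members' shares are near those of all tested genes.

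The intervals bound the size of each difference. Member differences ran from -0.32 to 0.39 on the log2(FPKM + 1) scale, with a median standard error of 0.17, and 0 of the 34 reached 0.5 in either direction. The unadjusted 95% interval of the difference lay within 1.5-fold either way for 20 of the 34 members, beside 53.1% of all tested genes, and within 2-fold for 34 of 34, beside 90.8%. These bounds are on the scale with the pseudocount of 1, which understates fold changes of genes at a few FPKM.

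**Figure D2:**
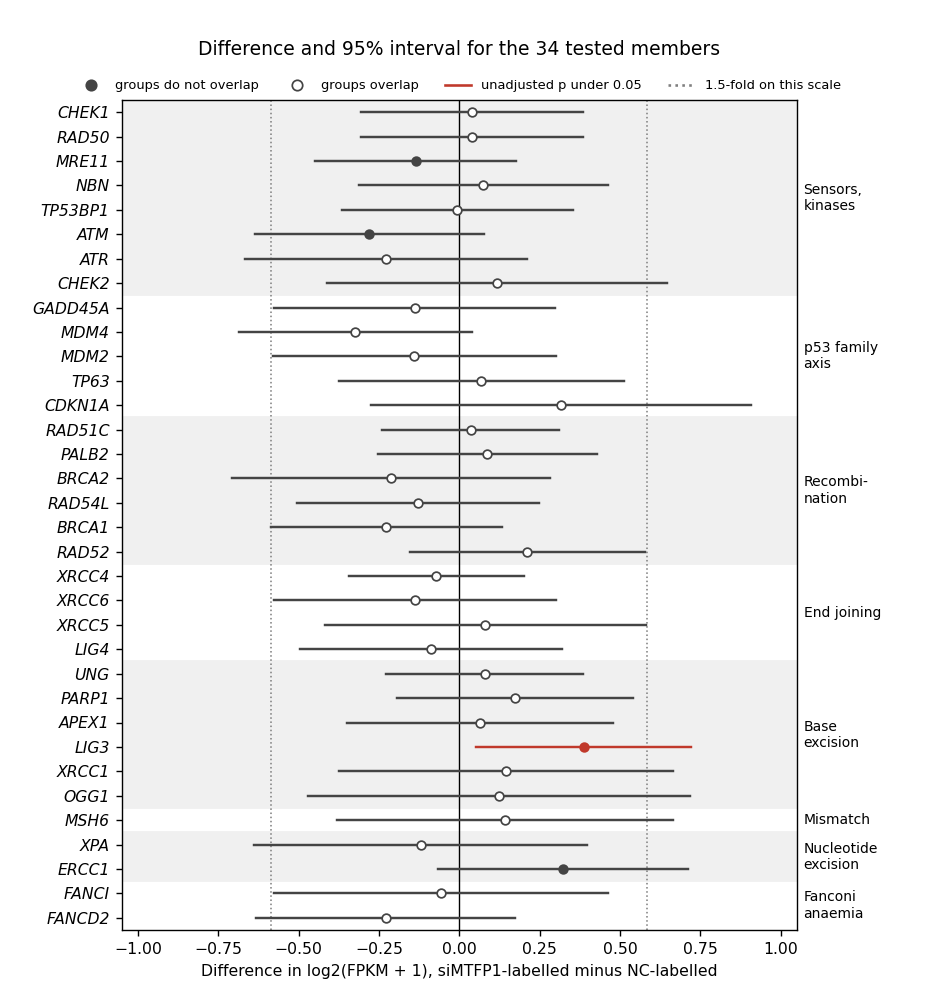
Difference in mean log2(FPKM + 1), siMTFP1-labelled minus NC-labelled, for the 34 tested members by role, with the 95% limma interval as a horizontal line. Filled points are genes whose groups do not overlap, red marks LIG3 with an unadjusted p under 0.05, and the dotted lines mark 1.5-fold; 33 of the 34 intervals include 0.

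Among the sensors and checkpoint kinases, 4 tested members averaged higher and 4 lower, and 0 passed the adjusted threshold. ATM (gene ID 526824), the kinase that answers double-strand breaks, had 3.40, 3.18 and 2.96 FPKM in siMTFP1 1, 2 and 3, against 4.35, 3.54 and 4.38 FPKM in NC 1, 2 and 3. All siMTFP1-labelled values lay below all NC-labelled ones, by a difference of -0.28 (SE 0.16, limma adjusted p = 0.828). MRE11 (525093), the nuclease of the break sensor, had 11.65, 10.78 and 11.53 FPKM in the siMTFP1-labelled libraries, against 13.19, 12.47 and 11.97 FPKM in the NC-labelled ones. Here too the groups did not overlap, yet the gap between the nearest libraries was small beside the spread within groups, and the difference was -0.14 (SE 0.14, limma adjusted p = 0.909). Its partners went the other way in mean, with RAD50, the long coiled-coil bridge of the complex, at 32.7 ± 4.42 and 31.7 ± 2.31 FPKM and NBN, the adaptor that brings in ATM, at 9.90 ± 1.85 and 9.25 ± 0.455 FPKM (SD, n = 3 each, siMTFP1-labelled then NC-labelled), and both overlapped between groups. RAD50 was 2.40 to 3.22 times as abundant as MRE11 in siMTFP1-labelled libraries and 2.33 to 2.75 times in NC-labelled ones.

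Among the kinases of the 2 branches, CHEK1 was far more abundant than ATM, ATR and CHEK2. CHEK1 (513678), the kinase that ATR activates to hold the cell cycle, had 102, 84.3 and 72.7 FPKM in siMTFP1 1, 2 and 3, against 80.8, 82.99 and 86.2 FPKM in NC 1, 2 and 3. The siMTFP1-labelled libraries held both the highest and the lowest value, and the difference was 0.04 (95% interval -0.31 to 0.38, limma adjusted p = 0.982). CHEK2, the kinase downstream of ATM that acts on TP63 in oocytes of the mouse, had 2.17, 0.76 and 1.60 FPKM against 1.45, 1.3 and 1.02 FPKM in the NC-labelled libraries, overlapping between groups. ATR, the kinase for stalled replication, averaged 1.78 ± 0.399 FPKM in siMTFP1-labelled and 2.27 ± 0.582 FPKM in NC-labelled libraries (SD, n = 3 each). The ratio of CHEK1 to ATR was thus 45.7, 53.7 and 47.5 in siMTFP1 1, 2 and 3, against 43.9, 40.9 and 29.4 in NC 1, 2 and 3. These ratios did not overlap between groups, although the values of each gene did. Every other ratio of partners computed did overlap, and 11.0% of all tested genes had groups without overlap. ATR, the divisor, lay at only 1.53 to 2.93 FPKM over the 6 libraries. The ratio of ATM to CHEK2 lay between 1.57 and 4.29 over the 6 libraries, with overlap. These and the other ratios between partners were chosen after the values were seen and carry no test. The break-site scaffold gene TP53BP1 was level between the groups, at 5.67 ± 0.526 and 5.70 ± 0.643 FPKM (difference -0.01, 95% interval -0.36 to 0.35), whereas MDC1, the scaffold that reads the damage-marked histone, lay under the filter at 0.38 to 0.40 FPKM in siMTFP1-labelled and 0.09 to 0.58 FPKM in NC-labelled libraries.

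In the p53 family axis 2 members averaged higher and 3 lower, and 0 passed. TP63 (615335), the p53 relative that guards oocytes, had 10.01, 15.1 and 12.8 FPKM in siMTFP1 1, 2 and 3, against 11.0, 14.4 and 10.5 FPKM in NC 1, 2 and 3. The groups overlapped, with siMTFP1 2 highest and siMTFP1 1 lowest, and the difference was 0.07 (SE 0.19, 95% interval -0.38 to 0.51, limma adjusted p = 0.975). MDM4 (514225), an inhibitor of p53, had 31.9, 30.6 and 27.1 FPKM in the siMTFP1-labelled libraries, against 42.8, 31.3 and 39.5 FPKM in the NC-labelled ones. Only NC 2 fell inside the siMTFP1-labelled range, and the difference of -0.32 was the lowest among the members (SE 0.16, unadjusted p = 0.0742, limma adjusted p = 0.789). MDM2, the ubiquitin ligase that turns p53 over, averaged 27.6 ± 4.11 and 30.7 ± 6.49 FPKM (SD, n = 3 each) and overlapped. The damage-inducible targets did not move together: CDKN1A (513497), the cyclin-dependent kinase inhibitor p21, had 8.96, 6.46 and 5.31 FPKM in siMTFP1 1, 2 and 3, against 7.79, 4.66 and 3.88 FPKM in NC 1, 2 and 3, a difference of 0.32 (SE 0.26, limma adjusted p = 0.892). With 1 library left out it ran from 0.14, without siMTFP1 1 or without NC 3, to 0.56 without NC 1 (unadjusted p = 0.0427, limma adjusted p = 0.711). GADD45A, a stress-induced partner of cell cycle and demethylation factors, averaged 37.4 ± 3.97 FPKM in siMTFP1-labelled and 41.9 ± 10.1 FPKM in NC-labelled libraries, and its groups overlapped as did those of CDKN1A.

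**Figure D3:**
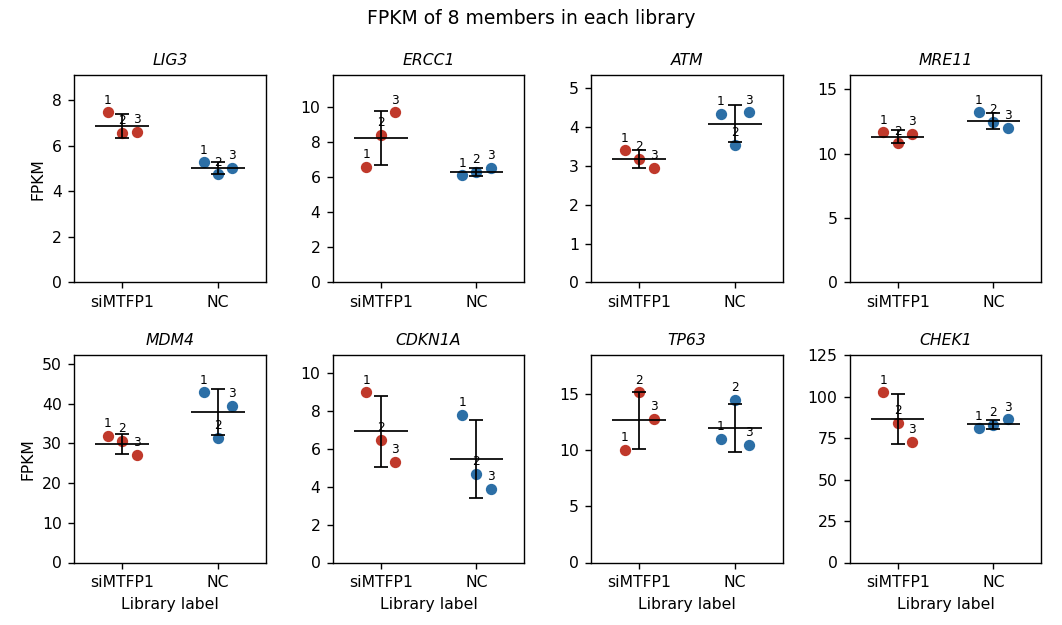
FPKM of 8 members in each library, on linear axes from 0, with siMTFP1-labelled libraries in red and NC-labelled libraries in blue; numbers are the replicate numbers, and the bar and whiskers are the mean and SD (n = 3). LIG3 and ERCC1 lie higher, and ATM and MRE11 lower, in all siMTFP1-labelled libraries, while MDM4, CDKN1A, TP63 and CHEK1 overlap.

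Recombination genes split evenly, with 3 of 6 higher and 3 lower, and 0 passed. RAD51C (540886), a recombinase paralog that helps load the strand exchange filament, had 179.7, 166 and 154 FPKM in siMTFP1 1, 2 and 3, against 155, 164 and 168 FPKM in NC 1, 2 and 3. The siMTFP1-labelled range enclosed the NC-labelled one, and the difference was 0.04 (95% interval -0.24 to 0.31, limma adjusted p = 0.979). PALB2 (507620), which joins BRCA1 to BRCA2, had 59.3, 71.01 and 61.1 FPKM against 62.6, 66.5 and 51.4 FPKM in the NC-labelled libraries, also overlapping (difference 0.09, 95% interval -0.25 to 0.43). BRCA1 (353120), which directs breaks toward recombination, had 10.04, 9.45 and 7.58 FPKM in the siMTFP1-labelled libraries, against 11.2, 10.8 and 10.04 FPKM in the NC-labelled ones. The groups touched at 10.04 FPKM, shared by siMTFP1 1 and NC 3, and the difference was -0.23 (SE 0.16, limma adjusted p = 0.877). BRCA2, the loader of the recombinase, averaged 29.4 ± 5.96 FPKM in siMTFP1-labelled and 34.3 ± 7.61 FPKM in NC-labelled libraries and was lowest in siMTFP1 3 (22.5 FPKM) and NC 2 (25.5 FPKM). RAD52 (512897), a mediator of strand annealing, had 5.52, 6.70 and 6.83 FPKM against 4.70, 5.73 and 5.60 FPKM in the NC-labelled libraries, a difference of 0.21 (SE 0.16, limma adjusted p = 0.884), with siMTFP1 1 inside the NC-labelled range. The motor protein gene RAD54L averaged 13.2 ± 1.38 and 14.6 ± 2.31 FPKM.

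End joining genes were far from equal in level, with 1 higher and 3 lower in mean and 0 that passed. XRCC4 (613590), the scaffold of the ligation complex, had 74.8, 75.2 and 73.4 FPKM in siMTFP1 1, 2 and 3, against 74.4, 82.7 and 78.03 FPKM in NC 1, 2 and 3. Its coefficient of variation of 1.28% within the siMTFP1-labelled group was the lowest of the 38 members, the groups overlapped, and the difference was -0.07 (95% interval -0.35 to 0.20, limma adjusted p = 0.953). LIG4, the ligase that XRCC4 holds, averaged only 4.80 ± 0.717 and 5.17 ± 0.885 FPKM (SD, n = 3 each), so that XRCC4 exceeded LIG4 14.3-fold to 18.5-fold in siMTFP1-labelled and 12.3-fold to 19.4-fold in NC-labelled libraries. The Ku subunit genes XRCC5 and XRCC6, whose proteins cap broken ends, averaged 5.59 ± 1.79 and 6.08 ± 1.59 FPKM in siMTFP1-labelled and 5.13 ± 0.843 and 6.67 ± 0.463 FPKM in NC-labelled libraries, and both overlapped between groups. PRKDC, the kinase that Ku recruits, was outside the list of 38 and chosen after its values were seen; it averaged 0.800 ± 0.05 FPKM in siMTFP1-labelled and 0.787 ± 0.108 FPKM in NC-labelled libraries.

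Base excision and single-strand break repair was the class in which all 6 members averaged higher in the siMTFP1-labelled libraries, with differences from 0.06 to 0.39. That direction held under the 3 other scalings of FPKM but not without NC 3, where 2 were higher and 4 lower. Without NC 3 the 34 tested members as a whole were 12 higher and 22 lower. Without siMTFP1 1 or without siMTFP1 2, 5 of this class were higher and 1 lower. LIG3 (514719), the ligase that seals single-strand nicks in the nucleus and in mitochondria, had 7.45, 6.54 and 6.59 FPKM in siMTFP1 1, 2 and 3, against 5.26, 4.73 and 5.03 FPKM in NC 1, 2 and 3. Every siMTFP1-labelled value lay above every NC-labelled one, with means of 6.86 ± 0.512 and 5.01 ± 0.266 FPKM. The difference of 0.39 (SE 0.15, 95% interval 0.05 to 0.72) had an unadjusted p of 0.0281 and did not pass over all genes (limma adjusted p = 0.750). Without siMTFP1 2, the library with the highest cumulus marker sum, it was 0.42 (limma adjusted p = 1.00), and the unadjusted p under 0.05 was lost without NC 2, NC 3, siMTFP1 1 or siMTFP1 2 (0.0509 to 0.0787) and with FPKM rescaled to equal sums (0.0542). Its partner XRCC1, the scaffold of the same nick-sealing complex, overlapped between the groups, at 6.33, 5.51 and 3.57 FPKM against 5.00, 5.19 and 3.35 FPKM in the NC-labelled libraries. The ratio of XRCC1 to LIG3 was 0.85, 0.843 and 0.542 in siMTFP1 1, 2 and 3 and 0.951, 1.10 and 0.666 in NC 1, 2 and 3, with overlap. UNG (511381), which removes uracil from DNA, had 112, 117 and 112 FPKM in the siMTFP1-labelled libraries, against 111, 120.2 and 93.8 FPKM in the NC-labelled ones (difference 0.08, 95% interval -0.23 to 0.39, limma adjusted p = 0.953). Its NC-labelled values enclosed those of the other group. The nick sensor PARP1 averaged 18.8 ± 2.60 and 16.6 ± 1.89 FPKM, the abasic site endonuclease APEX1 10.01 ± 1.44 and 9.57 ± 1.70 FPKM, and the oxidized guanine glycosylase OGG1 1.81 ± 0.864 and 1.56 ± 0.664 FPKM, siMTFP1-labelled before NC-labelled in each, and all 3 overlapped.

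In nucleotide excision repair ERCC1 (615637), a subunit of the nuclease that cuts beside bulky lesions, had 6.58, 8.40 and 9.68 FPKM in siMTFP1 1, 2 and 3, against 6.09, 6.29 and 6.53 FPKM in NC 1, 2 and 3. The groups did not overlap, although siMTFP1 1 lay only just above NC 3, and the difference was 0.32 (SE 0.17, unadjusted p = 0.0929, limma adjusted p = 0.816). XPC (524274), the lesion finder of genome-wide repair, lay under the filter, at 0.28, 0.33 and 0.46 FPKM in the siMTFP1-labelled libraries, against 0.23, 0.19 and 0.19 FPKM in the NC-labelled ones. These groups did not overlap either, at levels well below 1 FPKM, and in the fit without a filter the difference was 0.17 (SE 0.07, limma adjusted p = 0.819). XPA, which verifies the lesion, averaged 8.99 ± 0.674 and 10.2 ± 3.36 FPKM and overlapped. Mismatch repair was represented by MSH6, the mismatch recognition subunit, at 13.4, 13.5 and 11.2 FPKM in the siMTFP1-labelled and 12.7, 14.9 and 7.73 FPKM in the NC-labelled libraries, and by the endonuclease subunit PMS2, under the filter at 0.820 ± 0.431 and 0.643 ± 0.124 FPKM.

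The Fanconi anaemia genes, which unhook crosslinked strands, ranged from place 12 of 38 in the order of levels, for FANCI, to the last place, for FANCA. FANCD2 (515845), the clamp subunit that is ubiquitinated at crosslinks, had 7.32, 7.97 and 5.96 FPKM in siMTFP1 1, 2 and 3, against 9.77, 7.09 and 8.60 FPKM in NC 1, 2 and 3. NC 2 lay inside the siMTFP1-labelled range, and the difference was -0.23 (SE 0.18, limma adjusted p = 0.884). FANCI, its partner in the clamp, averaged 13.6 ± 3.08 and 14.3 ± 3.92 FPKM and was 1.36 to 2.25 times as abundant as FANCD2 in the 6 libraries. FANCA, a subunit of the core complex that ubiquitinates this clamp, did not exceed 0.05 FPKM in siMTFP1-labelled and 0.07 FPKM in NC-labelled libraries, and 1 library of each group listed it at 0.

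Libraries differed in how often they held the extreme value of a member. The library siMTFP1 3 had the lowest value of the 6 for 15 of the 34 tested members (44.1%), whereas it was lowest for 17.7% of all tested genes. These 15 included ATM, ATR, CHEK1, MDM2, MDM4, BRCA1, BRCA2, FANCD2 and FANCI. Its median deviation from the mean of each gene was -0.16 for the members and -0.02 for all tested genes on the log2(FPKM + 1) scale. The library siMTFP1 1 lay at the other side, highest for 11 members (32.4%, against 22.0% of all tested genes), among them CHEK1, CDKN1A, LIG3 and PARP1. Among the NC-labelled libraries, NC 1 was highest for 9 members (26.5%, against 21.2% of all tested genes) and NC 3 lowest for 8 (23.5%, against 28.7%). The members with a higher mean numbered 21 of 34 without siMTFP1 3 and 11 of 34 without siMTFP1 1, against 18 with all libraries. The library siMTFP1 2, with the highest cumulus marker sum, was highest for 3 members (8.82%, against 15.6% of all tested genes). The part of these libraries' other properties in the members' values was not tested.

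**Figure D4:**
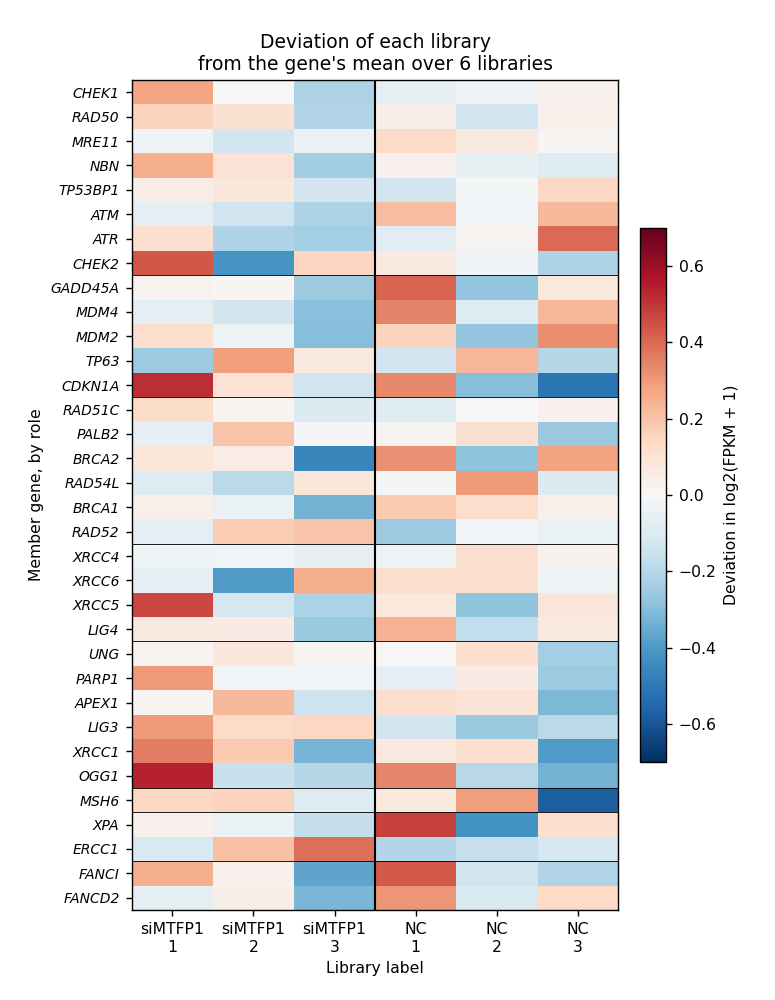
Deviation of each library from the gene's mean over the 6 libraries, in log2(FPKM + 1), for the 34 tested members, with siMTFP1-labelled libraries left of the black line and NC-labelled libraries right of it. Blue cells, below the mean, gather in the column of siMTFP1 3, which holds the lowest value for 15 of the 34 genes.

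The wider pathway gave 143 further genes of damage signalling and repair, of which 122 were tested. Of these 0 passed the adjusted threshold (limma, smallest adjusted p = 0.607), while an unadjusted p under 0.05 was reached by 3 in the higher direction (3.86% of all tested genes) and by 6 in the lower (2.66%). The median difference of the 122 was -0.04, with 53 higher and 69 lower, and the balance was 44 higher and 77 lower with median-ratio scaling. Without NC 1 it was 60 higher and 61 lower, and 2 and 1 of them had an unadjusted p under 0.05. The smallest p among the lower genes belonged to H2AFX, the histone variant whose phosphorylated form marks breaks, at 197, 233 and 264 FPKM in siMTFP1 1, 2 and 3, against 419.5, 292 and 361 FPKM in NC 1, 2 and 3. The groups did not overlap, and the difference was -0.62 (SE 0.17, limma adjusted p = 0.607). RPA2, a subunit of the single-strand binding protein, averaged 118 ± 9.68 and 157 ± 24.5 FPKM (difference -0.39), and the recombinase paralog RAD51B averaged 10.8 ± 1.95 and 14.7 ± 0.889 FPKM (difference -0.43), siMTFP1-labelled before NC-labelled. In the higher direction the smallest p-values were those of XAB2, an XPA-binding protein also found in splicing complexes, at 2.48 ± 0.466 and 1.43 ± 0.136 FPKM, of MAD2L2, a subunit of shieldin and of a translesion polymerase, at 133 ± 40.2 and 89.99 ± 10.8 FPKM, and of GADD45G, a relative of GADD45A, at 1.87 ± 0.742 and 0.783 ± 0.622 FPKM. The groups overlapped in RPA2 and GADD45G and did not overlap in RAD51B, XAB2 and MAD2L2. The highest MAD2L2 value, 179 FPKM, was that of siMTFP1 3. Of the 122 genes, 3 did not overlap in the higher direction (5.97% of all tested genes) and 8 in the lower (5.05%). GADD45G passed the filter only through its level in the siMTFP1-labelled libraries. FANCB, a lower gene without overlap, passed it only through the NC-labelled libraries, with means of 0.88 FPKM in siMTFP1-labelled and 1.13 FPKM in NC-labelled ones.

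By route, 6 of the 25 further recombination genes tested were higher and 19 lower (median difference -0.11), where 54.2% of all tested genes were higher; the lower genes were 18 to 21 of 25 under the 3 other scalings and 15 of 25 without NC 1 or without siMTFP1 3. Of the 9 further translesion and direct reversal genes, 2 were higher and 7 lower (median difference -0.09). Of 16 further base excision genes 12 were higher and 4 lower, but the balance was 10 and 6 with median-ratio or quantile scaling and 9 and 7 without NC 3 or without siMTFP1 1. Among 15 tested targets and regulators of the p53 family, 8 were higher and 7 lower, 1 each at an unadjusted p under 0.05. The death-promoting targets that TP63 is known to induce in mouse oocytes were level or near 0, as seen in genes chosen after their values were known. PMAIP1 had 3.08, 3.12 and 3.35 FPKM in siMTFP1 1, 2 and 3, against 2.72, 4.01 and 2.76 FPKM in NC 1, 2 and 3 (difference 0.02, limma adjusted p = 0.990), and BBC3 did not exceed 0.31 FPKM in siMTFP1-labelled or 0.44 FPKM in NC-labelled libraries. BAX, the pore-forming executor, averaged 28.3 ± 6.35 and 24.6 ± 5.69 FPKM and overlapped. The most abundant gene of that group, CCNG1, a cyclin induced by p53, averaged 469 ± 38.8 FPKM in siMTFP1-labelled and 419.8 ± 61.0 FPKM in NC-labelled libraries (difference 0.17, limma adjusted p = 0.892).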

How the data were processed

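The authors deposited 1 FPKM value per gene and library, with 2 decimals, for 17325 genes, per the file headers. Per the submitters' processing notes the tools were RSEM 1.3.1, HISAT2 2.2.1, DESeq2 1.4.5 and Bowtie2 2.3.4.3, with no roles given, and the genome was ARS-UCD1.2; strand and the handling of shared reads are not given in the sources used here. FPKM holds no read totals, so depth is unknown and no counting interval is given. FPKM sums per library were 784366 to 892790.4.

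Libraries were grouped by title. Genes were matched by symbol, and 38 of the 38 members carry the same symbol for their gene ID in the RefSeq table of ARS-UCD2.0, used for names only. A pseudocount of 1 was added before taking log2, genes averaging 1 FPKM or more were kept, and limma 3.58.1 in R 4.3.3 (eBayes with trend, group as the only term, two-sided) was fitted over all 9730 with Benjamini-Hochberg adjustment at 0.05. On simulated data (9730 genes, 200 changed, 20 simulations) it recovered 7.9% of log2 changes of 0.5 and 60.7% of changes of 1, with 4.37% false calls. The changed genes were drawn from those with a mean log2(FPKM + 1) above 2, and their changes were 0.5, 1, 2 or 3. The shares hold for that mix of sizes and those levels, and are not the chance of a call for a given member. Alternatives were pseudocounts 0.1 and 5, no filter and a filter of 5 FPKM, 3 scalings, the replicate block and leaving out each library. Members shown in every library were those with an unadjusted p under 0.05, without overlap, with the 4 smallest p per direction or the 5 highest means. The 3 further pathway genes with the smallest p per direction were named, H2AFX in every library and the others as mean and SD. TP63, CHEK2, XRCC1 and MSH6 were shown in every library after their values were seen. Members and lists were chosen with earlier results of these data known. Python 3.11.15, pandas 2.3.3, scipy 1.17.1 and matplotlib 3.10.9 were used.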

Additional observations from a re-analysis of the deposited data

How the results depend on the processing

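No member passed the adjusted threshold under any of the 14 alternatives run. Over all genes 2 passed with equal sums, 2 with a filter of 5 FPKM, and 0 to 2 when a library was left out. Members at an unadjusted p under 0.05 numbered 2 with median-ratio scaling, 2 with no filter, 0 with equal sums and 0 to 2 with a library left out, against 1 as reported. Their median log2 difference ran from -0.0817 without siMTFP1 1 to 0.0795 without siMTFP1 3. Of 195 alternative values of single named members 190 kept direction and 5 turned round, all close to 0. None of these members was called as reported or in an alternative, so this count concerns direction only. The count includes values under the replicate block, no filter and the filter of 5 FPKM. Those 3 settings cannot change a log2 difference, so direction was kept there by construction. RAD51C was -0.0011 with median-ratio scaling. With a library left out RAD51C ran from -0.0201 to 0.0917 and CHEK1 from -0.0887 to 0.156. PALB2 then ran from -0.0200 to 0.162 and UNG from -0.0202 to 0.157. The cause was not tested.

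With the replicate block the count was 0 over all genes and 0 among members, LIG3 was 0.39 (limma adjusted p = 0.754), the median was 0.04, and MTFP1 was 0.32 (exact paired permutation p = 0.75). Each replicate number occurs once in each group, so these differences and the median could not depart from those reported. Only the p-values and the counts could. The numbers share no stated culture, and same-numbered libraries deviated with correlations of 0.0342, -0.163 and 0.0667 across genes, so they were not treated as pairs. MTFP1 was 0.96 with a pseudocount of 0.1 and 0.09 with one of 5 (exact permutation p = 0.4 each) and ran from 0.14 to 0.44 with a library left out. The fit with no filter gave 0.32 (SE 0.21, limma adjusted p = 0.884), while the filter of 5 FPKM and quantile scaling of filtered genes give it no value. With a library left out BRCA1 ran from -0.30 to -0.12, FANCD2 from -0.34 to -0.13, MDM4 from -0.45 (unadjusted p = 0.0222 without NC 2) to -0.23 and ERCC1 from 0.21 to 0.46 (unadjusted p = 0.0263 without siMTFP1 1).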
